A study of Mus musculus with 4 samples.

Results

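The 9 genes described here, Smad7, Smad6, Skil, Ski, Pmepa1, Tgif1, Smurf1, Smurf2 and Bambi, encode negative regulators of SMAD signalling. They were taken as a named list of early TGF-b1-induced genes or known negative regulators. It was matched to probe sets whose only gene symbol is a member, out of 22180 genes so named on the array. Each of the 9 had 1 probe set, and all 9 were among the 13308 genes kept after a filter on low values (the 60% with the highest mean over the arrays, at least 4.51). RNA came from mesenchymal stem cells of mouse bone marrow, which grow attached to plastic and can give rise to bone, cartilage and fat. The 4 groups were Snail1-KO cells treated with TGF-b1 for 2 h, untreated Snail1-KO cells, Snail1-WT cells treated with TGF-b1 for 2 h and untreated Snail1-WT cells, each on 1 Affymetrix array. The labels used here name neither the way Snail1 was deleted nor the animals behind each culture.

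TGF-b ligands bind type II and type I receptor kinases, which phosphorylate SMAD2 and SMAD3. These join SMAD4, enter the nucleus and bind DNA, and among their early targets are genes whose products switch the signal off again. Inhibitory SMADs act at the receptors, SKI-family proteins and TGIF1 repress SMAD complexes on DNA, PMEPA1 holds SMADs away from the receptors, and SMURF ubiquitin ligases mark receptors and SMADs for degradation. BAMBI is a receptor-like protein without a kinase domain. Snail1, the product of Snai1, is a zinc finger repressor that TGF-b signalling induces in many cell types.

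Values are on the log2 scale of RMA, on which 2-fold is a difference of 1. With 1 array per group no difference has a replicate check and no p-value is given. As a guide to error, an error SD was taken for each gene from the disagreement of both genotypes' responses among the 500 genes nearest in level, and it lay between 0.08 and 0.17 for the 9 members. Any spread between cultures that is shared by both arrays of a genotype, or by both treated arrays, is left out of it. Probe-set levels are compared between arrays and not between genes. In RNA from whole cultures, a change in the number of cells of a type and a change in RNA per cell cannot be told apart.

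Snai1 measured 5.34 with TGF-b1 and 5.09 untreated in Snail1-KO cells, against 7.63 and 6.69 in Snail1-WT cells, the direction of the labels. Of 11 stromal markers 10 were measured and 8 kept. Pdgfrb lay between 10.66 and 11.59 and Cxcl12 between 10.76 and 11.20, whereas Lepr, at 2.86 to 3.20, and Nt5e, at 4.23 to 4.62, had means below the lowest kept. Of markers of other cells, 5 of 9 haematopoietic, 3 of 7 endothelial, 4 of 6 epithelial and 6 of 7 smooth muscle and pericyte genes measured were kept. Ptprc lay at 3.15 to 3.78, Pecam1 at 4.40 to 4.80 and Epcam at 3.79 to 4.03, whereas Cd68 lay at 6.05 to 6.23, Cd14 at 5.53 to 6.59, Lmod1 at 6.25 to 6.58, Cnn1 at 6.82 to 7.84 and Smtn at 8.20 to 8.74. The medians of 9 haematopoietic markers were 4.58, 4.58, 4.76 and 4.48 in the order of groups above. Cd34, which stromal cells also express, was the brightest of them at 10.25 to 11.03.

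Sequences upstream of the start site were available here for 5 members, and 3 are shown: Smad6 and Smurf1, which were among the members with the larger responses, and Smurf2, the paralog of Smurf1 with a smaller one. Each is the 250 bases before the RefSeq start (GRCm38.p6), on the minus strand, at chr9:64022060-64022309 for Smad6, chr5:144965831-144966080 for Smurf1 and chr11:106920716-106920965 for Smurf2. Capitals mark the SMAD box with its flanking base, CAGAC, which reads GTCTG on the other strand, and the GC-rich SMAD sequence GGCGCC, which reads the same on both strands.
Smad6: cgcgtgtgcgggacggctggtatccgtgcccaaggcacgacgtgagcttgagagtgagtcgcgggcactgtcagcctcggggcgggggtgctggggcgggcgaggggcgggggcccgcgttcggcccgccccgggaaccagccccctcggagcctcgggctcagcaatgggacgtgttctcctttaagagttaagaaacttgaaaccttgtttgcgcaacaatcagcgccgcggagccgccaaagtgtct
Smurf1: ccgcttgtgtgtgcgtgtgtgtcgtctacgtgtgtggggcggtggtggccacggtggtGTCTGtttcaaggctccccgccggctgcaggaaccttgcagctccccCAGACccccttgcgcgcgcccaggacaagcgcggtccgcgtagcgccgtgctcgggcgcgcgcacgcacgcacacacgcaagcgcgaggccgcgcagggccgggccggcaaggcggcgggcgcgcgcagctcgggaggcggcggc
Smurf2: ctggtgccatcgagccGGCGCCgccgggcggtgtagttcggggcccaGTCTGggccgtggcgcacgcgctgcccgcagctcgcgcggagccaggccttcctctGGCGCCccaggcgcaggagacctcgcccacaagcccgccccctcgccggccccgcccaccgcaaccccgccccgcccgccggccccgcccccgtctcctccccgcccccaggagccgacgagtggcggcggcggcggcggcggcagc
Smurf1 held CAGAC at 2 places and Smurf2 at 1, and Smurf2 held GGCGCC at 2 places. Smad6 held neither. CAGAC was present in 42.2% of all 32851 windows of this length and GGCGCC in 9.59%. The Ski window held GGCGCC once, and 3 of 5 Tgif1 windows, at separate start sites, held CAGAC. Neither the palindromic SMAD-binding element GTCTAGAC (0.167% of all windows) nor the AP-1 sequence TGANTCA (6.75%) nor the Snail-type E-box CACCTG (17.2%; CAGGTG on the other strand) was found in the 9 windows of these 5 genes. Of these 9 windows 5 were of Tgif1. Skil, Pmepa1, Smad7 and Bambi had no window here and were not searched. No matches overlapped. These are matches of letters, on both strands, and not sites shown to be bound.

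After 2 h of TGF-b1, Skil, Pmepa1, Smad7 and Smad6 were at least 2-fold higher in both genotypes, and no member was 2-fold lower. Of all 13308 kept genes, 0.999% were at least 2-fold higher and 0.308% 2-fold lower in Snail1-KO cells, and 0.714% and 0.271% in Snail1-WT cells. At 1.5-fold, 7 of 9 members were higher in Snail1-KO cells and 6 of 9 in Snail1-WT cells, against 3.31% and 2.48% of kept genes. Early induction by TGF-b1 was one ground for choosing the members, and earlier results of these data were known. A share above that of all kept genes thus follows in part from the choice. The median response of the 9 members was 0.998 in Snail1-KO cells and 0.91 in Snail1-WT cells, against -0.02 and -0.03 over all kept genes. Responses are TGF-b1 minus untreated throughout.

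**Figure D1:**
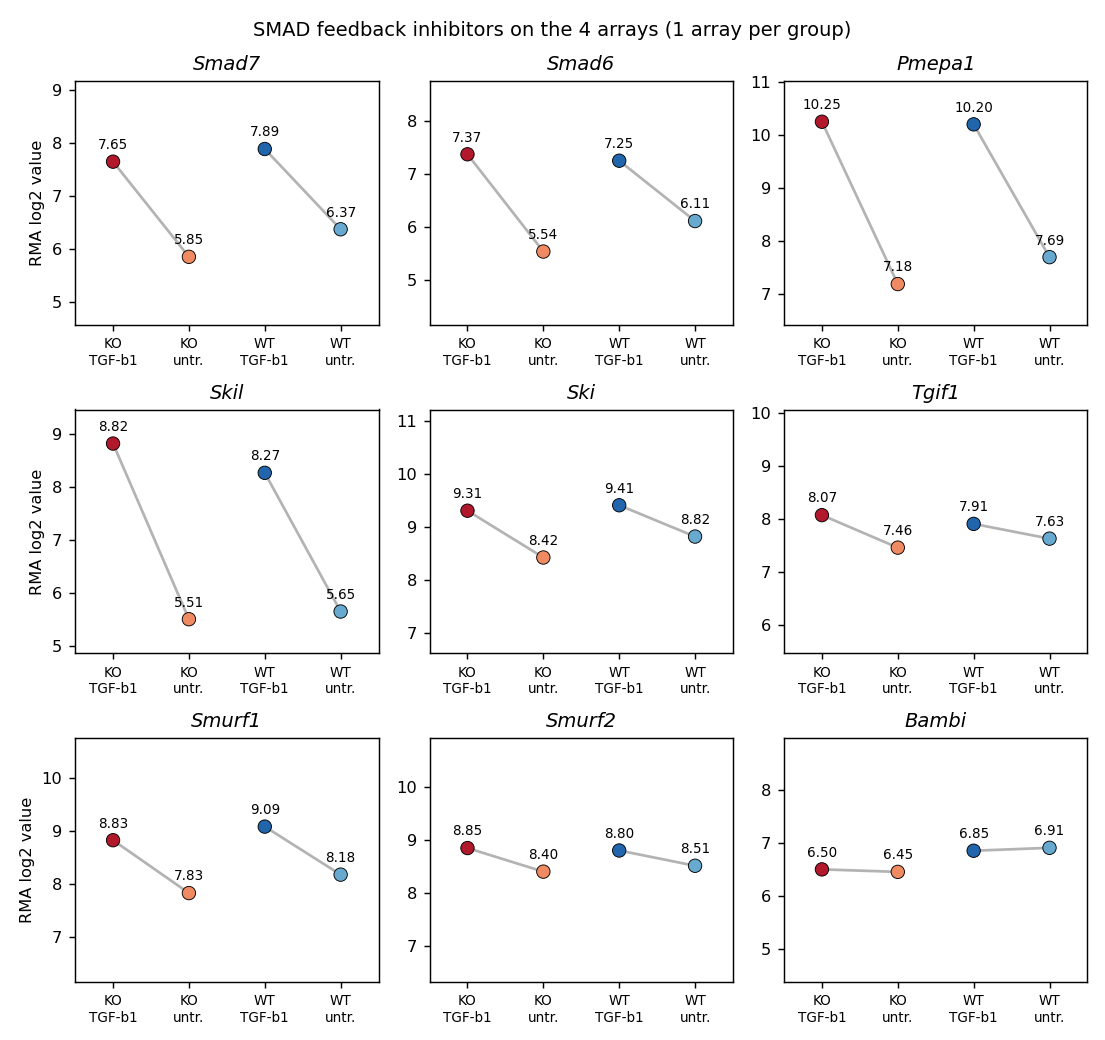
RMA log2 value (vertical axis, the same span of log2 units in each panel) of the 9 members on each of the 4 arrays, with the arrays of one genotype joined by a line. Skil and Pmepa1 have the steepest lines, and those of Bambi are nearly flat.

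The inhibitory SMADs responded in both genotypes. Smad7, whose product binds activated type I receptors and brings SMURF ligases to them, measured 7.65 with TGF-b1 and 5.85 untreated in Snail1-KO cells, against 7.89 with TGF-b1 and 6.37 untreated in Snail1-WT cells. Both treated arrays lay above both untreated arrays. The response was 1.80 (3.47-fold) in Snail1-KO cells, rank 22 of 13308 kept genes, and 1.51 (2.86-fold) in Snail1-WT cells, rank 27, with an error SD of 0.15. Smad6, known best as an inhibitor of bone morphogenetic protein (BMP) receptors, measured 7.37 with TGF-b1 and 5.54 untreated in Snail1-KO cells, against 7.25 with TGF-b1 and 6.11 untreated in Snail1-WT cells. Its treated values were close together, and the untreated Snail1-KO array was the lowest. The response of Smad6 was 1.84 (3.57-fold, rank 19) in Snail1-KO cells and 1.14 (2.20-fold, rank 69) in Snail1-WT cells, with an error SD of 0.16.

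Among the SMAD co-repressors, Skil and Ski, members of one family, differed in the size of their response. Skil, which encodes SnoN, measured 8.82 with TGF-b1 and 5.51 untreated in Snail1-KO cells, against 8.27 with TGF-b1 and 5.65 untreated in Snail1-WT cells. Its untreated arrays were nearly equal, and the treated Snail1-KO array was the highest. The response of 3.31 (9.95-fold) in Snail1-KO cells and of 2.62 (6.14-fold) in Snail1-WT cells ranked 3 of 13308 in each, with an error SD of 0.15. Ski measured 9.31 with TGF-b1 and 8.42 untreated in Snail1-KO cells, against 9.41 with TGF-b1 and 8.82 untreated in Snail1-WT cells. The response of Ski was 0.88 (1.84-fold) in Snail1-KO cells and 0.59 (1.51-fold) in Snail1-WT cells, under 2-fold in both but above its error SD of 0.08. Tgif1, a homeodomain protein gene whose product recruits histone deacetylases to SMAD2, measured 8.07 with TGF-b1 and 7.46 untreated in Snail1-KO cells, against 7.91 with TGF-b1 and 7.63 untreated in Snail1-WT cells. Its response was 0.61 in Snail1-KO cells and 0.28 in Snail1-WT cells (error SD 0.11), and 3.05% and 10.4% of kept genes were at least as high.

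Pmepa1, whose membrane protein sequesters SMAD2 and SMAD3 and also binds ubiquitin ligases of the NEDD4 family, measured 10.25 with TGF-b1 and 7.18 untreated in Snail1-KO cells, against 10.20 with TGF-b1 and 7.69 untreated in Snail1-WT cells. The treated levels were thus almost the same in both genotypes, while the untreated level was lower in Snail1-KO cells. The response was 3.06 (8.36-fold, rank 4) in Snail1-KO cells and 2.51 (5.68-fold, rank 5) in Snail1-WT cells, with an error SD of 0.08.

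The SMURF ubiquitin ligase genes were apart from each other in their responses. Smurf1, first known for its action on the SMADs of BMP signalling, measured 8.83 with TGF-b1 and 7.83 untreated in Snail1-KO cells, against 9.09 with TGF-b1 and 8.18 untreated in Snail1-WT cells. Its response was 0.998 in Snail1-KO cells, just under 2-fold, and 0.91 (1.87-fold) in Snail1-WT cells, ranks 135 and 136, with an error SD of 0.10. After median centring of the arrays the response in Snail1-KO cells was 1.01, past 2-fold. Smurf2 measured 8.85 with TGF-b1 and 8.40 untreated in Snail1-KO cells, against 8.80 with TGF-b1 and 8.51 untreated in Snail1-WT cells. Its response was 0.44 (1.36-fold) in Snail1-KO cells and 0.29 (1.22-fold) in Snail1-WT cells, with an error SD of 0.09. Both SMURF genes were therefore higher with TGF-b1 in each genotype, and Smurf1 by more than Smurf2 in each.

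Bambi was the exception among the 9. It measured 6.50 with TGF-b1 and 6.45 untreated in Snail1-KO cells, against 6.85 with TGF-b1 and 6.91 untreated in Snail1-WT cells. The response was 0.05 in Snail1-KO cells and -0.06 in Snail1-WT cells, both within its error SD of 0.17, and 83.5% and 79.9% of kept genes had a response at least as large in size.

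**Figure D2:**
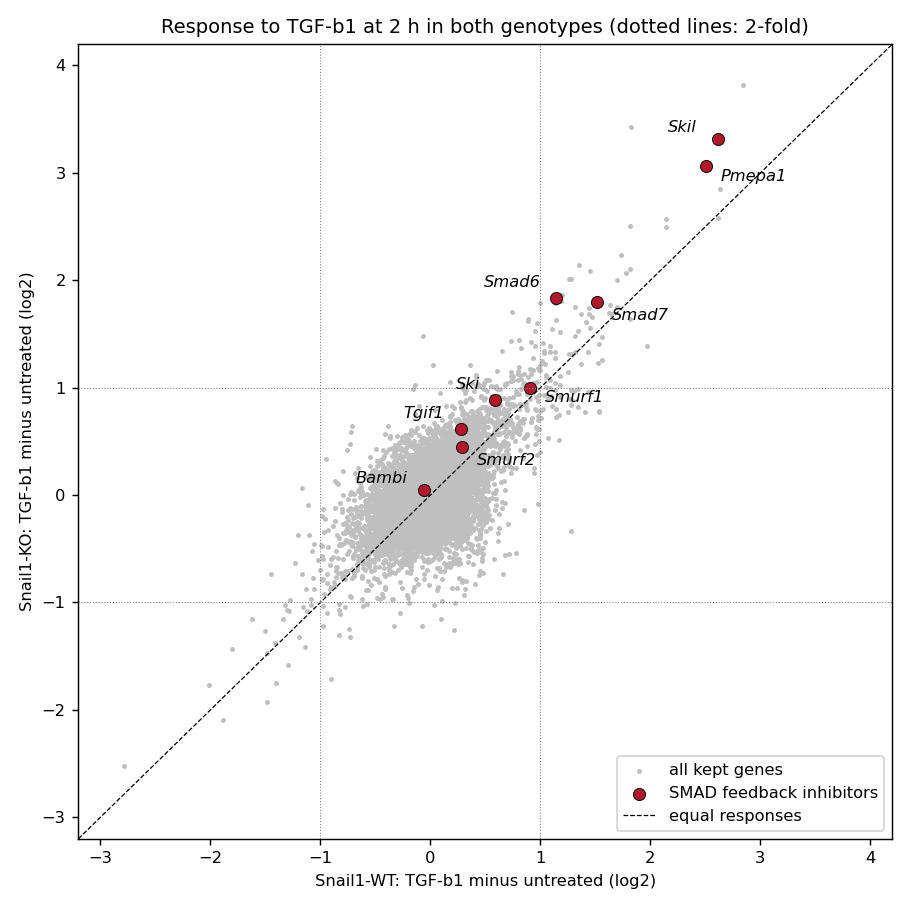
Response to TGF-b1 in Snail1-KO cells (vertical, log2) against that in Snail1-WT cells (horizontal, log2) for all 13308 kept genes (grey) and the 9 members (red). All 9 members lie above the dashed line of equal responses, Smurf1 and Bambi by about 0.1.

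Without TGF-b1, all 9 members were lower in Snail1-KO cells than in Snail1-WT cells, by less than 2-fold. Of all kept genes, 50.0% were lower in untreated Snail1-KO cells and 1.57% were 2-fold apart in either direction. Smad6 differed by -0.58, Smad7 by -0.52, Pmepa1 by -0.51, Bambi by -0.45, Ski by -0.39 and Smurf1 by -0.35. These lay at -6.19 to -2.68 times their error SD, yet differences of this size were not rare: 3.29% of kept genes were at or below Smad6 and 10.9% at or below Smurf1. Tgif1 (-0.17), Skil (-0.14) and Smurf2 (-0.11) lay at -1.53 to -0.98 times their error SD. The median of the members was -0.39, against 0.00 over all kept genes. Snai1 itself differed by -1.60. Cell type markers also differed between the untreated cultures. Of 10 stromal markers 8 were lower in Snail1-KO cells, with a median of -0.26 (Pdgfra -0.37, Eng -0.35 and Pdgfrb -0.30). Of 9 haematopoietic markers 7 were higher, with a median of 0.33. That median was the value of Ptprc, which was not kept, and Adgre1 and Lyz2, also higher, were not kept either. Of the markers kept, Cd34 differed by 0.54, Cd14 by 0.42, Cd3e by 0.10, Cd68 by 0.05 and Csf1r by -0.12. Of 7 smooth muscle and pericyte markers 6 were higher, with a median of 0.17, but Cnn1 differed by -0.90. With TGF-b1 the medians were -0.21, -0.05 and 0.05. Their part in the members' differences was not tested.

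With TGF-b1, 5 members were higher and 4 lower in Snail1-KO cells than in Snail1-WT cells, beside 49.6% of kept genes that were higher. That share was 57.3% after median centring of the arrays and 49.0% after cyclic loess normalization. Again no member was 2-fold apart, against 1.7% of all kept genes. Skil was higher by 0.55 (1.47-fold, 3.75 times its error SD), and 5.98% of kept genes were at least as high. Tgif1 differed by 0.17, Smad6 by 0.12, Pmepa1 by 0.05 and Smurf2 by 0.05. Lower were Bambi (-0.35), Smurf1 (-0.26), Smad7 (-0.24) and Ski (-0.10). The median of the members was 0.05, against 0.00 over all kept genes. These 4 were thus lower in Snail1-KO cells both with and without TGF-b1, and with it Smurf1 and Bambi lay at -2.60 and -2.08 times their error SD, Smad7 at -1.64 and Ski at -1.26.

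**Figure D3:**
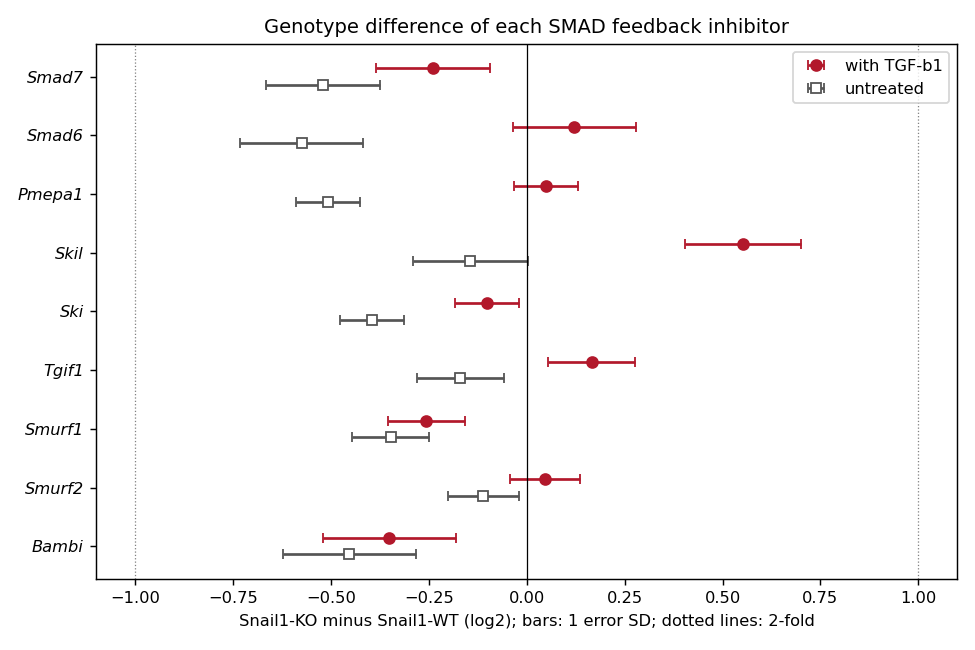
Snail1-KO minus Snail1-WT (log2, horizontal axis) for each member, with TGF-b1 (red circles) and untreated (open squares), with bars of 1 error SD on each side. All 9 squares lie left of 0, while the circles lie on both sides of it, Skil farthest right at 0.55.

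The response to TGF-b1 had a higher value in Snail1-KO cells than in Snail1-WT cells for all 9 members, against 53.6% of kept genes with a higher value. That share was 62.7% after median centring of the arrays and 51.2% after cyclic loess normalization, with all 9 members higher in each. This difference of the responses uses the same untreated arrays as the genotype difference above, so the lower untreated values in Snail1-KO cells enter both. Skil and Smad6 had the largest differences, each at 0.70 (1.62-fold), and were the only members past 1.5-fold, as 1.61% of kept genes were. Pmepa1 followed at 0.56, Tgif1 at 0.33, Ski at 0.29 and Smad7 at 0.28. Smurf2 (0.16), Bambi (0.10) and Smurf1 (0.09) differed least. No member reached 2-fold, as 0.338% of kept genes did in either direction (14 higher and 31 lower, or 19 and 26 after median centring of the arrays). For Skil most of the difference lay in the treated arrays, 0.55 against -0.14 in the untreated ones. For Smad6 and Pmepa1 it lay in the untreated arrays, with 0.12 and 0.05 treated against -0.58 and -0.51 untreated.

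For the 5 members whose values spanned at least 1 log2 unit, the 3 genes nearest in pattern were sought by the distance between profiles over the 4 arrays, each centred on its own mean. Nearest to Smad7 were Ppp1r13l, encoding an inhibitor of p53 (distance 0.06), the forkhead factor gene Foxq1 (0.10) and the netrin receptor gene Unc5b (0.12). Ppp1r13l had a response of 1.74 in Snail1-KO and 1.45 in Snail1-WT cells. Nearest to Smad6 were the microfibril gene Mfap4 (0.08), the collagen receptor subunit gene Itga11 (0.15) and the ligand gene Tgfb3 (0.15). Tgfb3 measured 9.58 with TGF-b1 and 7.79 untreated in Snail1-KO cells, and 9.30 and 8.30 in Snail1-WT cells. Mfap4 measured 4.11 in untreated Snail1-KO cells, under the lowest mean kept, which leaves the size of its response uncertain.

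Skil and Pmepa1 were near each other (distance 0.47). The other genes nearest to Skil were the hexosamine pathway gene Gfpt2 (0.70) and Rasl11b (0.77), which was low when untreated, at 4.08 in Snail1-KO and 4.16 in Snail1-WT cells. The other genes nearest to Pmepa1 were Gfpt2 (0.45) and the zinc finger gene Egr2 (0.48). Smurf1 had closer neighbours, with the cytokine signalling inhibitor gene Cish at 0.04, the ubiquitin ligase adaptor gene Fem1b at 0.07 and Coq10b at 0.07. Fem1b had a response of 1.05 in Snail1-KO and 0.97 in Snail1-WT cells. Over 4 arrays such likeness is only a description.

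Other regulators of SMAD signalling, 28 genes all kept, moved far less than the 9 members, which were in part chosen as early TGF-b1-induced genes. The list was drawn up for negative regulators but is not of inhibitors alone. It holds Rnf111 and the receptor gene Tgfbr3, which is also among the receptors below. Of the 28, only Ldlrad4, whose membrane protein is a relative of PMEPA1, was at least 2-fold higher. It was higher by 1.33 in Snail1-KO cells and 1.43 in Snail1-WT cells, and no gene of the list was 2-fold lower. The median response was 0.01 in Snail1-KO cells and -0.03 in Snail1-WT cells. Ldlrad4 measured 8.56 with TGF-b1 and 7.23 untreated in Snail1-KO cells, and 8.30 and 6.87 in Snail1-WT cells. Unlike the 9 members it was higher in untreated Snail1-KO cells, by 0.37, as 13 of the 28 genes of this list were by any amount. The ubiquitin ligase gene Wwp2 was higher with TGF-b1 by 0.55 in Snail1-KO and 0.32 in Snail1-WT cells. The vinexin gene Sorbs3 differed by -0.37 in Snail1-KO and -0.73 in Snail1-WT cells, and the antiproliferative gene Tob1 by -0.45 and -0.59 in the same order. Rnf111, whose product Arkadia marks SMAD7 and SKI-family proteins for degradation, differed by 0.38 in Snail1-KO and 0.18 in Snail1-WT cells.

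Of 24 ligands, receptors, signalling SMADs and latent TGF-b binding proteins, 4 were at least 2-fold higher in Snail1-KO cells and 1 in Snail1-WT cells, and none was 2-fold lower. Ltbp2, encoding a latent TGF-b binding protein, was higher by 1.28 in Snail1-KO cells and 1.13 in Snail1-WT cells. The BMP-type SMAD gene Smad9 was higher by 1.18 and 0.98, Tgfb3 by 1.79 and 0.999, and the activin receptor gene Acvr1b by 1.03 and 0.48, Snail1-KO cells first in each. Smad9 measured 4.47 in untreated Snail1-KO cells, below the lowest mean kept. The receptor genes Tgfbr1 (0.71 in Snail1-KO and 0.71 in Snail1-WT cells) and Tgfbr2 (-0.39 and -0.37) went opposite ways. Smad2 and Smad3 differed by -0.30 and 0.01 in Snail1-KO cells, and by 0.11 and -0.40 in Snail1-WT cells.

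The other early TGF-b targets were also mostly higher with TGF-b1. Of 19 measured, 12 were at least 2-fold higher in Snail1-KO cells and 11 in Snail1-WT cells, with medians of 1.33 and 1.14. One, Angptl4, was 2-fold lower in Snail1-KO cells, by -1.04. The largest responses were those of Ccn2 (3.82 in Snail1-KO and 2.84 in Snail1-WT cells), Rasl11b (3.43 and 1.82), Has2 (2.58 and 2.61) and Hbegf (2.50 and 2.14). The size and rank of the Rasl11b response are uncertain, since both its untreated values lay under the lowest mean kept. For Ccn2, the mean over its 2 probe sets gave 2.09 in Snail1-KO and 1.95 in Snail1-WT cells. In untreated cells 16 of these 19 were lower in Snail1-KO than in Snail1-WT cells, with a median of -0.31, beside -0.39 for the 9 members.

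The BMP-SMAD targets, among which Smad6 and Bambi are often counted, were split in their response. Of 10 measured, 6 were higher with TGF-b1 in Snail1-KO cells and 5 in Snail1-WT cells. That was near the share of all kept genes, of which 46.2% and 45.2% were higher. In Snail1-KO cells 1 of the 10 was at least 2-fold higher and in Snail1-WT cells none, with medians of 0.26 and 0.03. The response had a higher value in Snail1-KO cells for 9 of the 10, with a median difference of the responses of 0.20, beside 0.29 for the 9 members. Atoh8 was higher by 1.04 in Snail1-KO cells and 0.94 in Snail1-WT cells, and Dlx5 by 0.89 and 0.63. Id1 differed by -0.01 in Snail1-KO cells and -0.64 in Snail1-WT cells. Id2 measured 6.45 with TGF-b1 and 5.97 untreated in Snail1-KO cells, against 5.88 with TGF-b1 and 6.61 untreated in Snail1-WT cells. Its response was 0.48 in Snail1-KO cells and -0.73 in Snail1-WT cells.

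**Figure D4:**
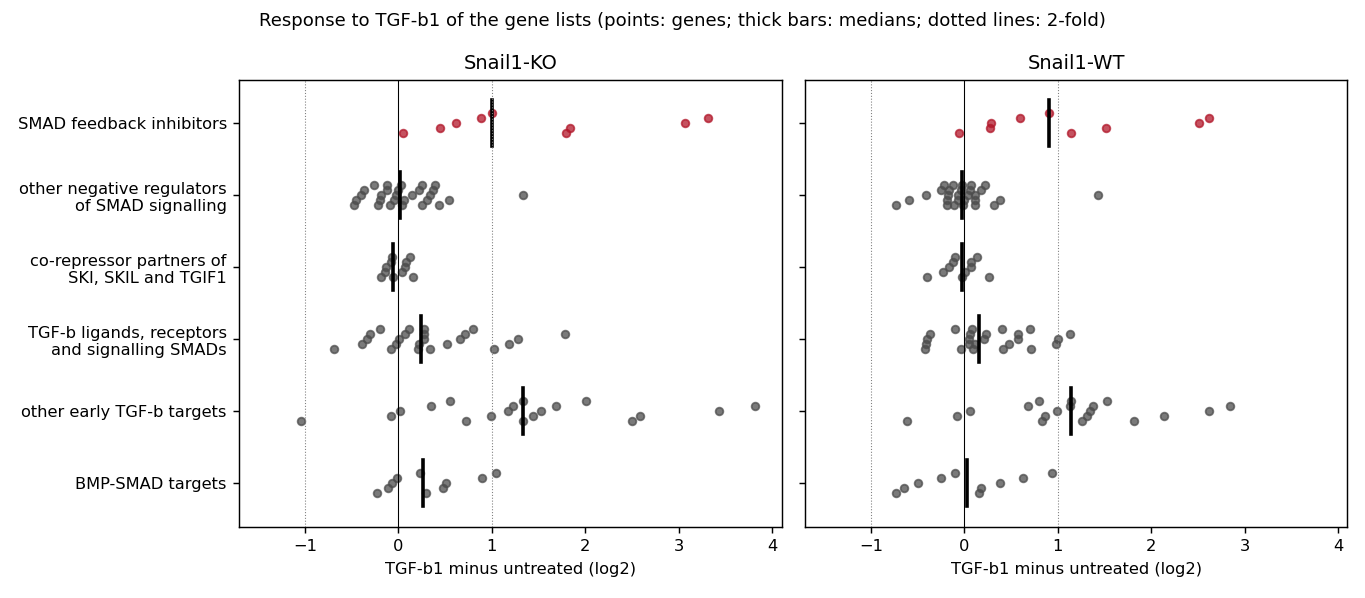
Response to TGF-b1 (log2, horizontal axis) in Snail1-KO cells (left) and Snail1-WT cells (right) of each measured gene (points) of the 9 members (red) and of 5 other lists (grey), with the median of each list as a thick bar. The medians of the members and of the other early TGF-b targets lie farthest to the right of 0. Of the early targets, 17 of 19 were higher in each genotype, beside 46.2% of kept genes in Snail1-KO and 45.2% in Snail1-WT cells. The list labelled other negative regulators, which is not of inhibitors alone, centres near 0, with Ldlrad4 apart at 1.33 and 1.43.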

How the data were processed

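Expression was measured on 4 Affymetrix arrays of mouse cells, 1 per group, with groups taken from the sample titles. Per the labels' protocols, biotin-labelled targets were made from total RNA (WT PLUS reagents). The deposited log2 values had been made with RMA in R 3.1.1, as the submitters' processing notes state. RMA subtracts background, forces the arrays to one distribution and gives 1 value per probe set, which would hide a shift common to most genes. The genome build and probe annotation behind it are not given in the sources used. Medians of the arrays, over 41345 probe sets, were 4.58 to 4.63. Precision is limited by the number of arrays.

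Gene symbols came from the platform annotation, which gave 23521 probe sets 1 symbol and 1814 several. No probe set with several symbols held a member. Each gene was represented by its brightest probe set, and the upper 60% of genes by mean were kept. Differences of log2 values and counts at least 2-fold apart were computed in Python 3.11.15 with numpy 2.4.6 and pandas 2.3.3, and checked on simulated data. The error SD is the scaled median absolute deviation, over the 500 genes nearest in level, of the difference between both responses after division by the square root of 2. It includes true differences. The members and lists were chosen with earlier results of these data known. Named genes are Snai1, all members, the 3 genes nearest in pattern to each member spanning at least 1 log2 unit (gene models, clones, small RNA and receptor segments skipped), and up to 4 members per list with the largest response. Rnf111, Tgfbr1, Tgfbr2, Smad2, Smad3, Angptl4 and the cell type markers were added after their values were seen. Alternatives were a threshold of 1.5-fold, filters at 40% and none, centring on array medians, cyclic loess (limma 3.58.1 in R 4.3.3) and averaging all probe sets of a gene.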

Additional observations from a re-analysis of the deposited data

Results flagged for a closer look

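Genes whose response to TGF-b1 had opposite signs in the 2 genotypes were looked for among the members and the other genes named here. Of these, Smad2, Smad3 and the cell type markers had been added after their values were seen. The differences were not tested. The response of Id2 was 0.48 in Snail1-KO cells and -0.73 in Snail1-WT cells, a difference of 1.21. Bambi differed by 0.10 between responses of 0.05 and -0.06, which is within its error SD of 0.17. The signalling SMAD genes Smad2 (-0.30 in Snail1-KO and 0.11 in Snail1-WT cells) and Smad3 (0.01 and -0.40) differed by -0.41 and 0.40, with error SDs of 0.11 and 0.12. The co-repressor component gene Tbl1xr1 differed by 0.26, with a response of 0.03 in Snail1-KO cells and -0.23 in Snail1-WT cells and an error SD of 0.11. In Snail1-KO cells the responses of Smad3 and Tbl1xr1 lay within their error SDs, so their signs there are uncertain. Among cell type markers with low values on these arrays, the difference of the responses was 0.66 for Cdh5, 0.31 for Tek and -0.49 for Emcn (endothelial). It was -0.26 for Cdh1 and 0.38 for Cldn4 (epithelial), -0.60 for Rgs5 (pericyte) and 0.37 for Lepr (stromal), with error SDs of 0.22 to 0.23. For Rgs5 and Cdh1 the mean over their 2 probe sets gave -0.15 and -0.21, both within their error SDs. For each of these markers the response in at least 1 genotype lay within its error SD, so the opposite signs are uncertain. All error SDs given here are for a difference between 2 arrays. The error of a difference of 2 responses is larger by the square root of 2. Emcn and Lepr were not kept, so their error SDs came from brighter genes.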

How the results depend on the processing

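No paired analysis was possible because the labels give no replicate numbers to use as a block; the responses are themselves differences within a genotype. With 1 array per group no array could be left out. At a 1.5-fold threshold 7 members in place of 4 were higher with TGF-b1 in Snail1-KO cells, and 2 members in place of 0 (Skil and Smad6) differed in their responses between the genotypes, since a lower threshold admits more genes. Over all kept genes that threshold gave 684 in place of 174 for the response of Snail1-KO cells, 581 in place of 131 for that of Snail1-WT cells, 951 in place of 209 for the untreated and 1083 in place of 226 for the treated genotype difference, and 476 in place of 45 for the difference of the responses. The last count was 197 with no filter and 4 with a filter at 40%. Every member difference kept its sign under median centring and cyclic loess, and moved by at most 0.05. Averaging all probe sets of a gene could not change a member, since each had 1 probe set. After median centring Smurf1 passed 2-fold in Snail1-KO cells (1.01), which made 5 members higher there in place of 4. The other counts of members stayed within 1.5 times, and the list medians, also over kept members alone (added after seeing the data), moved by less than the median error SD of the members.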

Other observations

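The partners through which SKI, SKIL and TGIF1 repress transcription had a median response near 0 at 2 h, as all kept genes did. Of 14 such genes 11 were measured under a single symbol, all 11 were kept, and none was 1.5-fold apart in either genotype. Of all 13308 kept genes, 684 were so in Snail1-KO cells and 581 in Snail1-WT cells, and none among 11 is near that share. The median response of the 11 was -0.05 in Snail1-KO cells and -0.02 in Snail1-WT cells, against -0.02 and -0.03 over all kept genes. The SIN3 complex gene Sap30 differed by -0.19 in Snail1-KO cells and -0.40 in Snail1-WT cells, its scaffold gene Sin3a by -0.08 and -0.16, and the co-repressor gene Ctbp2 by 0.15 and 0.26, with Snail1-KO cells first in each.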
